A study of Mus musculus with 2 samples.

Results

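The cells described here are Havcr2+ CD8 T cells with low granzymes C to F from B16-F10 melanomas, 1060 of the 4407 CD8 T cells and of the 20216 barcodes kept from 2 droplet single-cell RNA libraries. Kept barcodes had at least 1000 UMIs, 300 genes and at most 10% mitochondrial UMIs. The knockout library, of DGAT1-knockout B16-F10 tumours, gave 585 of them among 2535 CD8 T cells, and the WT library, of WT B16-F10 tumours, gave 475 among 1872. They were picked by a rule on raw UMIs (unique molecular identifiers, 1 per captured RNA molecule) in each cell: at least 3 of Cd3d, Cd3e and Cd3g together, at least 2 of Cd8a and Cd8b1, none of Cd4 or Foxp3, fewer than 10 per 10000 UMIs of the 3 C1q genes, at most 4 of Mki67 and Top2a, at least 2 of Havcr2, at most 1 of Tcf7 and Slamf6, and fewer than 10 of Gzmc, Gzmd, Gzme and Gzmf. The rule was written with results of these data in view, so the levels of its genes are given only as a description. The other CD8 T cells were split by the same counts into cycling cells, granzyme C-F high cells, Tcf7 or Slamf6 positive cells and a remainder low in Havcr2.

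B16-F10 is a pigmented mouse melanoma line. In the study, tumours grew under the skin for 14 days, were digested with collagenase D and DNase I, and living CD45+ cells (leukocytes) were sorted from the suspension, to look at the immune cells around tumours that lack DGAT1, an enzyme that makes triglyceride. The knockout is in the tumour line, and the T cells belong to the host, whose strain, sex and age the labels do not give. The labels state 3 tumours per group but tie no cell to a tumour, so each group is 1 sample, there is no replicate check, and no difference between the groups was tested.

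Havcr2 encodes TIM-3, an inhibitory receptor that T cells carry late in a long response to antigen. In tumours, CD8 T cells that see antigen for weeks pass from a Tcf7+ Slamf6+ state, able to renew itself, to a state with many inhibitory receptors and the transcription factor Tox, which is commonly called exhausted. Perforin opens the membrane of the target cell and granzymes enter to kill it. Mouse granzymes C to F lie in 1 cluster with granzyme B and appear in strongly stimulated killer cells.

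In all, 202946827 UMIs came from knockout tumours and 235652476 from WT tumours, and the kept barcodes had medians of 11103 UMIs in knockout tumours and 14866 in WT tumours. The Havcr2+ low granzyme C-F cells had a median of 14260 UMIs and 3819 genes in knockout tumours, against 17194 UMIs and 4160 genes in WT tumours. Their median mitochondrial share was 2.39% in knockout tumours, against 2.31% in WT tumours. Summed over the cells, 9060098 UMIs from knockout tumours and 8775112 from WT tumours stand behind the levels below, which are given as CPM (counts scaled to a total of 1000000 per library and class). The 95% intervals beside levels, shares and ratios are exact and cover counting error only. Of the kept barcodes, 25 occurred in both libraries, and none of these lay among the Havcr2+ low granzyme C-F cells of both. Scrublet marked 39 (6.67%) of the Havcr2+ low granzyme C-F cells as doublets in knockout tumours and 16 (3.37%) in WT tumours. They held 10.9% of the UMIs of these cells in knockout tumours, against 5.32% in WT tumours. These stayed in, and values without them are given beside the named genes whose direction or call they change.

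Pdcd1, Tox and Lag3, markers of the label, were present in these cells in both libraries. Pdcd1 and Tox do not set them apart from the Havcr2 low remainder, which had similar levels, as given below. Pdcd1, which encodes the inhibitory receptor PD-1 and was not in the rule, was at 440 CPM in knockout tumours, against 417 CPM in WT tumours. Tox was at 1828 CPM in knockout tumours and 1417 CPM in WT tumours. Lag3, another inhibitory receptor, was at 185 CPM in knockout tumours, against 231 CPM in WT tumours. Cells were thinned to 5000 UMIs each to compare shares of cells with a UMI at 1 depth, which kept 566 knockout and 450 WT cells. Pdcd1 was then seen in 85.5% of the cells from knockout tumours and 81.8% of those from WT tumours. In macrophages picked by their C1q genes, which should lack it, the thinned share was 1.72% in knockout tumours and 0.790% in WT tumours. Their median depths before thinning were 13961 UMIs in knockout tumours, against 18111 in WT tumours. Tox was seen in 96.5% of thinned cells in knockout tumours and 96.2% in WT tumours, and in 3.898% of macrophages in knockout tumours, against 1.76% in WT tumours. Of the genes of the rule, Havcr2 had a median of 4 UMIs per cell in knockout tumours and 5 in WT tumours, and granzymes C to F were at 0 in 85.3% of the cells from knockout tumours and 74.5% of those from WT tumours.

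The rule, called the gate below, took a part of the CD8 T cells whose interval overlapped between the libraries, while the granzyme C-F high part did not overlap. It held 23.1% of CD8 T cells (95% binomial interval 21.4 to 24.8) in knockout tumours, against 25.4% (23.4 to 27.4) in WT tumours, a ratio of 0.909 (0.804 to 1.03). Of the CD8 T cells that were not cycling it held 49.1% in knockout tumours and 55.1% in WT tumours. Because the gate reads raw UMIs, its share depends on depth. After thinning to 5000 UMIs, which left out 2027 shallower kept barcodes in knockout tumours, against 1412 in WT tumours, it was 19.98% in knockout tumours and 23.0% in WT tumours. The thinned gate is partly another set of cells. Of its 440 cells in knockout tumours, 291 were in the gate at full depth, as were 220 of its 372 in WT tumours. Granzyme C-F high cells were 2.33% of CD8 T cells in knockout tumours, against 4.65% in WT tumours, a ratio of 0.501 (0.354 to 0.705). Tcf7 or Slamf6 positive cells were 7.34% in knockout tumours and 5.29% in WT tumours, a ratio of 1.39 (1.08 to 1.79). The Havcr2 low remainder was 14.3% in knockout tumours, against 10.7% in WT tumours, and cycling cells were 53.0% in knockout tumours and 54.0% in WT tumours. These other classes are cut on raw UMIs too, and kept barcodes were deeper in the WT library. Their shares were not recomputed at 1 depth.

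**Figure D1:**
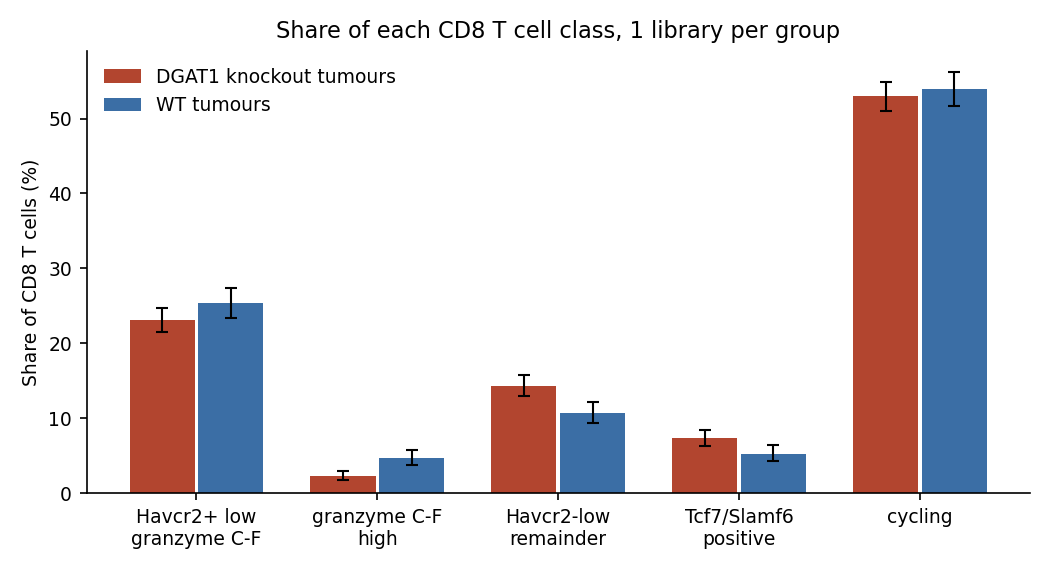
Share of CD8 T cells (percent, vertical axis) in each of the 5 classes, with knockout tumours left of WT tumours in each pair. Bars are the share in 1 library and lines its exact 95% binomial interval, for counting error only. The Havcr2+ low granzyme C-F bars stand at 23.1% for knockout tumours and 25.4% for WT tumours with overlapping intervals, and the granzyme C-F high bars at 2.33% for knockout tumours and 4.65% for WT tumours have intervals that do not overlap.

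The cells just inside and just outside each cut-off show how sharp it was. In the knockout library the 105 cells with exactly 2 Havcr2 UMIs had Tox at 1883 CPM and Prf1 at 325 CPM, against 1772 and 235 CPM in the 157 cells just outside with 1 UMI. In the WT library the 80 cells with 2 Havcr2 UMIs had Tox at 1861 CPM and Prf1 at 509 CPM, against 1955 and 467 CPM in the 83 cells with 1. Il7r, the interleukin 7 receptor of naive and memory cells, was at 21.5 CPM inside and 46.9 CPM outside this cut-off in the knockout library, and at 22.1 and 45.5 CPM in the WT library. Cells with 5 to 9 UMIs of granzymes C to F, just inside, had Prf1 at 554 CPM in knockout tumours, against 1723 CPM in WT tumours. Cells with 10 to 19 UMIs, just outside, had 1282 CPM in knockout tumours and 2027 CPM in WT tumours. Tox was at 760 CPM just inside in knockout tumours, against 925 CPM in WT tumours, and just outside it was at 745 CPM in knockout tumours and 795 CPM in WT tumours. The cells with no UMI of granzymes C to F had Tox at 1942 CPM in knockout tumours, against 1584 CPM in WT tumours. Just inside the cycling cut-off, with 3 or 4 UMIs of Mki67 and Top2a, Tox was at 1509 CPM in knockout tumours and 1157 CPM in WT tumours, and just outside, with 5 to 7 UMIs, at 1235 CPM in knockout tumours, against 1201 CPM in WT tumours.

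Across the 5 classes, the Havcr2+ low granzyme C-F cells had more Tox and less perforin and granzyme B than the granzyme C-F high cells, and Pdcd1 and Tox near the levels of the Havcr2 low remainder. This comparison is a description, because the classes were cut from genes of the same cells. Prf1 was at 407 CPM in the Havcr2+ low granzyme C-F cells, 1902 CPM in granzyme C-F high cells, 303 CPM in cycling cells, 199 CPM in the Havcr2 low remainder and 149 CPM in Tcf7 or Slamf6 positive cells of the knockout library. The same order held in the WT library, with 1094, 2489, 817, 353 and 230 CPM. Tox ran the other way at the top. It was at 1828 CPM in the Havcr2+ low granzyme C-F cells and 708 CPM in granzyme C-F high cells of the knockout library, and at 1417 and 714 CPM in the WT library. In the Havcr2 low remainder Tox was at 1766 CPM in knockout tumours, against 1824 CPM in WT tumours, which in WT tumours is above the gate. Pdcd1 was there at 405 CPM in knockout tumours and 389 CPM in WT tumours. Entpd1, the ectonucleotidase CD39, was at 286 CPM in the Havcr2+ low granzyme C-F cells and 100 CPM in Tcf7 or Slamf6 positive cells of the knockout library, and at 257 and 62.6 CPM in the WT library. Il7r was lower in the gate than in Tcf7 or Slamf6 positive cells, at 29.8 CPM in the gate and 326 CPM in those cells of the knockout library, and at 30.4 and 368 CPM in the WT library.

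**Figure D2:**
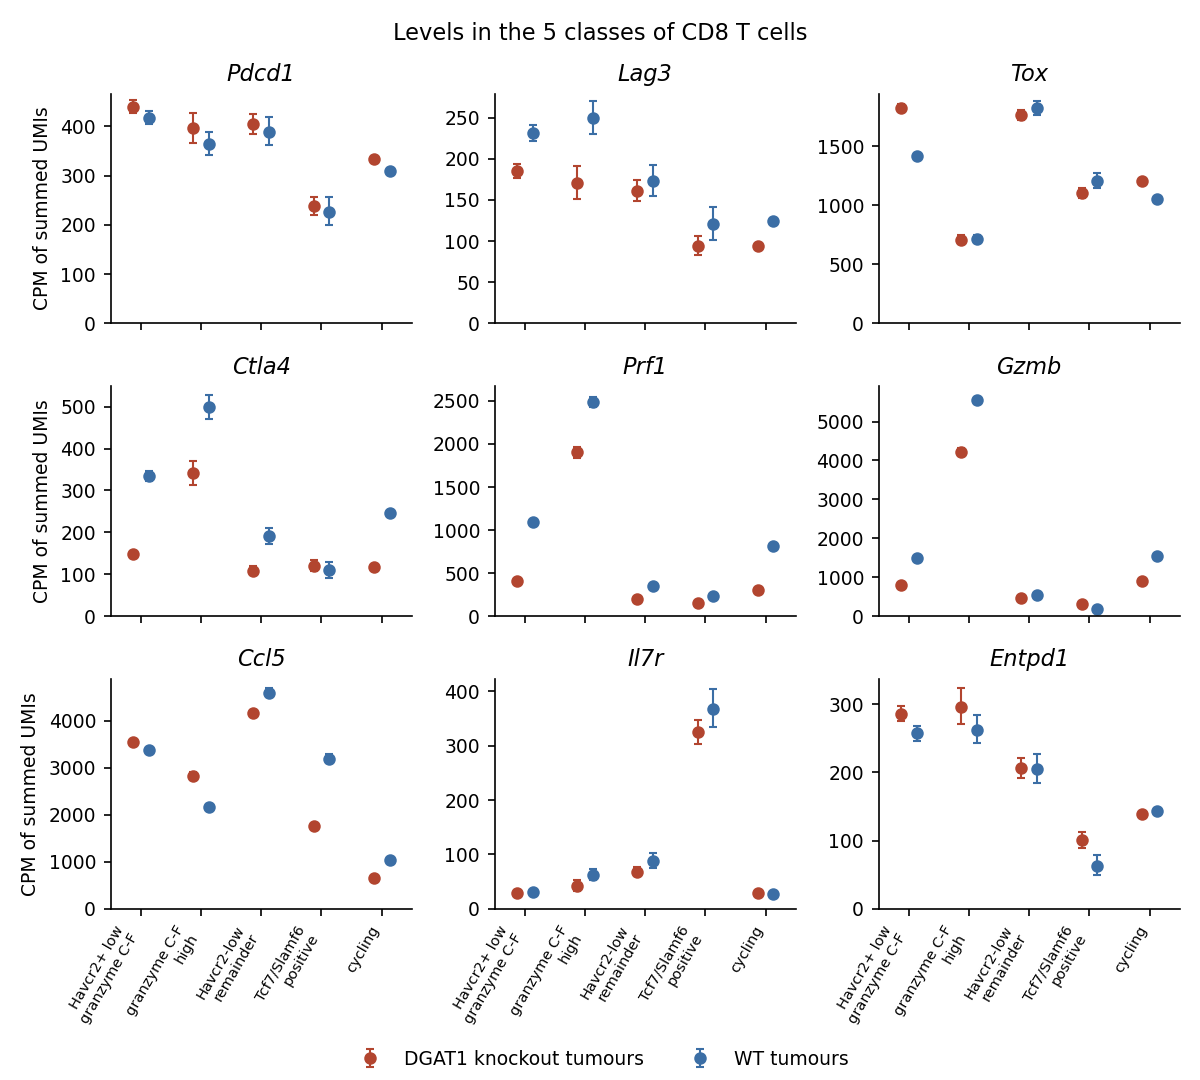
Level (CPM of summed UMIs, vertical axes) of 9 genes in the 5 CD8 T cell classes, knockout tumours left of WT tumours, 1 library each, with exact 95% Poisson intervals for counting error only. Prf1 in the Havcr2+ low granzyme C-F cells stands at 407 CPM in knockout tumours and 1094 CPM in WT tumours, below the granzyme C-F high cells at 1902 CPM in knockout tumours and 2489 CPM in WT tumours. Pdcd1 stands at 440 CPM in knockout tumours and 417 CPM in WT tumours.

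Against all other CD8 T cells, 603 of 11880 compared genes were at least 1.5-fold higher in the Havcr2+ low granzyme C-F cells in both libraries (5.08%) and 1118 were at least 1.5-fold lower (9.41%). Most of the others are cycling cells, and the cell cycle list shows it: 28 of its 32 compared members were lower and none was higher, with the rule genes left out. Genes of the type I interferon response, which interferon receptors switch on in nearly every cell type, were higher in 21 of 28, with medians of 0.998 on the log2 scale in knockout tumours, against 0.74 in WT tumours. Ifi209, an interferon-induced gene of the Ifi200 family, was at 131 CPM in the gate and 56.2 CPM outside it in the knockout library, and at 97.1 and 43.9 CPM in the WT library. Relatives Ifi213 and Ifi214 were 2.37 and 2.65 times as high in the gate as outside it in the knockout library, and 2.32 and 2.62 times in the WT library. Members of the interferon list were also higher in the gate than in cycling cells for 24 of 28 and than in granzyme C-F high cells for 14 of 27. Elsewhere they were not: 1 member was higher and 3 were lower against Tcf7 or Slamf6 positive cells, and none passed 1.5-fold either way against the Havcr2 low remainder.

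Inhibitory receptors were higher in the gate than in the other CD8 T cells for 8 of 15 members, with none lower, but that pool is mostly cycling cells. Against Tcf7 or Slamf6 positive cells 6 of 14 were higher and 3 lower, and against the Havcr2 low remainder none of 14 passed 1.5-fold either way. Cd38, an NAD-consuming ectoenzyme found on exhausted T cells, was at 81.7 CPM in the gate and 31.2 CPM outside it in the knockout library, and at 71.7 and 29.7 CPM in the WT library. Ccl5, a chemokine of effector T cells, was at 3552 CPM in the gate and 1018 CPM outside it in the knockout library, and at 3385 and 1303 CPM in the WT library. Fgl2, a secreted suppressor of immune cells, was at 111 and 47.4 CPM in knockout tumours and at 92.9 and 44.0 CPM in WT tumours. Hcst, the adaptor DAP10 of the receptor NKG2D, was at 369 and 163 CPM in knockout tumours, and at 341 and 152 CPM in WT tumours. The rest of the 12 genes that led this comparison were Ifit1bl1, Ypel3, Tcp11l2, Kdm5b and Cd200r4. The 12 that led in the other direction were genes of DNA replication and mitosis, such as Esco2, Nusap1, Kif4, Plk1, Kif14 and histone genes of the Hist1 cluster. In cycling cells alone, Ccl5 was at 649 CPM in the knockout library and 1034 CPM in the WT library. The 12 higher genes were not among those that led against the granzyme C-F high cells, the Tcf7 or Slamf6 positive cells or the remainder. They are thus not given as traits that set the gate apart from those classes.

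Set against single classes, the distances differed. Relative to granzyme C-F high cells, 848 of 9068 genes were higher in both libraries (9.35%) and 150 lower (1.65%), with 7 of 20 cytotoxic genes lower and 2 higher. Bcl2, which protects cells from death, was at 268 CPM in the gate and 67.9 CPM in the granzyme C-F high cells in the knockout library, and at 160 and 51.6 CPM in the WT library. Chn2, a brake on the GTPase Rac, was at 274 and 46.9 CPM in knockout tumours and at 124 and 24.2 CPM in WT tumours. Tle4, a corepressor, was at 169 and 46.9 CPM in knockout tumours, and at 102 and 24.2 CPM in WT tumours. Of 11 compared macrophage markers, 9 were also higher in the gate than in the granzyme C-F high cells, and their part in this comparison was not tested. Relative to Tcf7 or Slamf6 positive cells, 314 of 9081 genes were higher (3.46%) and 524 lower (5.77%), and 13 of 15 naive and progenitor genes were lower. Gzmb, granzyme B, was at 803 CPM in the gate and 320 CPM in those cells in the knockout library, and at 1501 and 193 CPM in the WT library. Relative to cycling cells, 877 of 11574 genes were higher (7.58%) and 1265 lower (10.9%). The Havcr2 low remainder was the nearest class, with 77 of 9064 genes higher in the gate (0.85%) and 57 lower (0.629%). Even there, 4 of 31 hypoxia and glycolysis genes and 4 of 12 cytokine genes were higher in the gate in both libraries, and 5 of 11 naive and progenitor genes were lower. Ccnd3, a cyclin, was at 168 CPM in the gate and 351 CPM in the remainder in the knockout library, and at 124 and 250 CPM in the WT library.

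Between the tumours, the Havcr2+ low granzyme C-F cells of the knockout library carried more RNA of the integrin chains Itga1 and Itgb1 and less of perforin, the costimulatory receptors Tnfrsf4 and Tnfrsf9 and glycolysis genes than those of the WT library. Of 9756 genes with at least 50 UMIs in 1 library, 655 were at least 1.5-fold higher in the knockout library (6.71%) and 411 at least 1.5-fold lower (4.21%). The median gene was higher by 0.08 on the log2 scale in the knockout library, and with ratios centred on it 476 genes were higher and 520 lower. With doublets left out, 425 were higher. These counts describe 2 libraries.

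The 12 leading genes higher in the knockout library began with integrins and receptors. Itga1 (chr13:114953096-115101964 in mm10, minus strand) encodes the alpha 1 chain of a collagen-binding integrin, and it was at 69.2 CPM in knockout tumours and 24.4 CPM in WT tumours, a ratio of 2.84 (2.43 to 3.33). Its partner Itgb1 (chr8:128685654-128733200, plus strand), the beta 1 chain, was at 395 CPM in knockout tumours, against 160 CPM in WT tumours, a ratio of 2.47 (2.32 to 2.63). Both chains were thus higher in the knockout library, and Itga1 was seen in 200 cells there and 84 in the WT library. Chn2 was at 274 CPM in knockout tumours and 124 CPM in WT tumours. Cxcr3, a receptor for interferon-induced chemokines, was at 26.2 CPM in knockout tumours, against 10.0 CPM in WT tumours. Ccr2, a chemokine receptor better known from monocytes, was at 111 CPM in knockout tumours and 55.3 CPM in WT tumours. Cd5 and Cd6 encode related surface receptors that dampen T cell receptor signals. Cd5 was at 143 CPM in knockout tumours, against 74.1 CPM in WT tumours. Cd6 was at 229 CPM in knockout tumours and 116 CPM in WT tumours. Morrbid, a long noncoding RNA that lowers the death gene Bcl2l11 in mouse myeloid cells, was at 125 CPM in knockout tumours, against 62.3 CPM in WT tumours. Arnt2, a dimer partner of PAS-domain transcription factors, was at 32.1 CPM in knockout tumours and 15.4 CPM in WT tumours. The others were AU020206, Ust and Iqgap2, with ratios of 1.90, 1.89 and 1.88.

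The 12 leading genes lower in the knockout library included perforin, an inhibitory receptor and a pair of costimulatory receptors. Prf1 (chr10:61297833-61304680 in mm10, plus strand) was at 407 CPM in knockout tumours, against 1094 CPM in WT tumours, a ratio of 0.372 (0.358 to 0.387). Prf1 was seen in 71.9% of thinned cells in knockout tumours and 87.1% in WT tumours, and in 2.17% of macrophages in knockout tumours, against 2.55% in WT tumours. The cell at the 90th percentile had 8.82 UMIs per 10000 in knockout tumours and 21.4 in WT tumours. Ctla4 (chr1:60887000-60915832, plus strand), an inhibitory receptor, was at 147 CPM in knockout tumours, against 334 CPM in WT tumours, a ratio of 0.440 (0.412 to 0.470). Tnfrsf9 (chr4:150914562-150946102, plus strand) encodes the costimulatory receptor CD137 and was at 268 CPM in knockout tumours and 547 CPM in WT tumours, a ratio of 0.489 (0.465 to 0.513). Tnfrsf4, the costimulatory receptor OX40, was at 70.6 CPM in knockout tumours, against 149 CPM in WT tumours. All 4 were higher in the WT library. The metallothioneins Mt2 and Mt3, which bind zinc, had ratios of 0.427 and 0.424. Xlr4c was a low-level gene, at 3.09 CPM in knockout tumours, against 16.3 CPM in WT tumours. Chchd10, a mitochondrial protein, was at 49.8 CPM in knockout tumours and 132 CPM in WT tumours. The others were Camk2b, Apobec2 and Gldc, with ratios of 0.295, 0.344 and 0.444.

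These differences were mostly shared with the rest of the CD8 T cells, so they are not set apart as properties of the Havcr2+ low granzyme C-F cells. All 24 genes went the same way in the other CD8 T cells pooled. Cycling cells, the largest class, gave a log2 ratio of -1.43 for Prf1, equal to that of the gate, and 1.34 for Itgb1, against 1.30 in the gate. In 2 classes some genes lay on the other side of 0. In the Havcr2 low remainder these were Mt3 at 0.049 and Ccr2 at -0.013, while Morrbid, at 0.036, stayed on the same side but close to 0. In Tcf7 or Slamf6 positive cells Ctla4, Gldc and Mt3 were at log2 ratios of 0.14, 0.30 and 0.70, above 0, and Chn2, Cxcr3, Iqgap2 and Ust were at -0.21, -0.08, -0.22 and -0.06. Whether the classes differ in these ratios was not tested, since each ratio rests on 1 library per group.

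**Figure D3:**
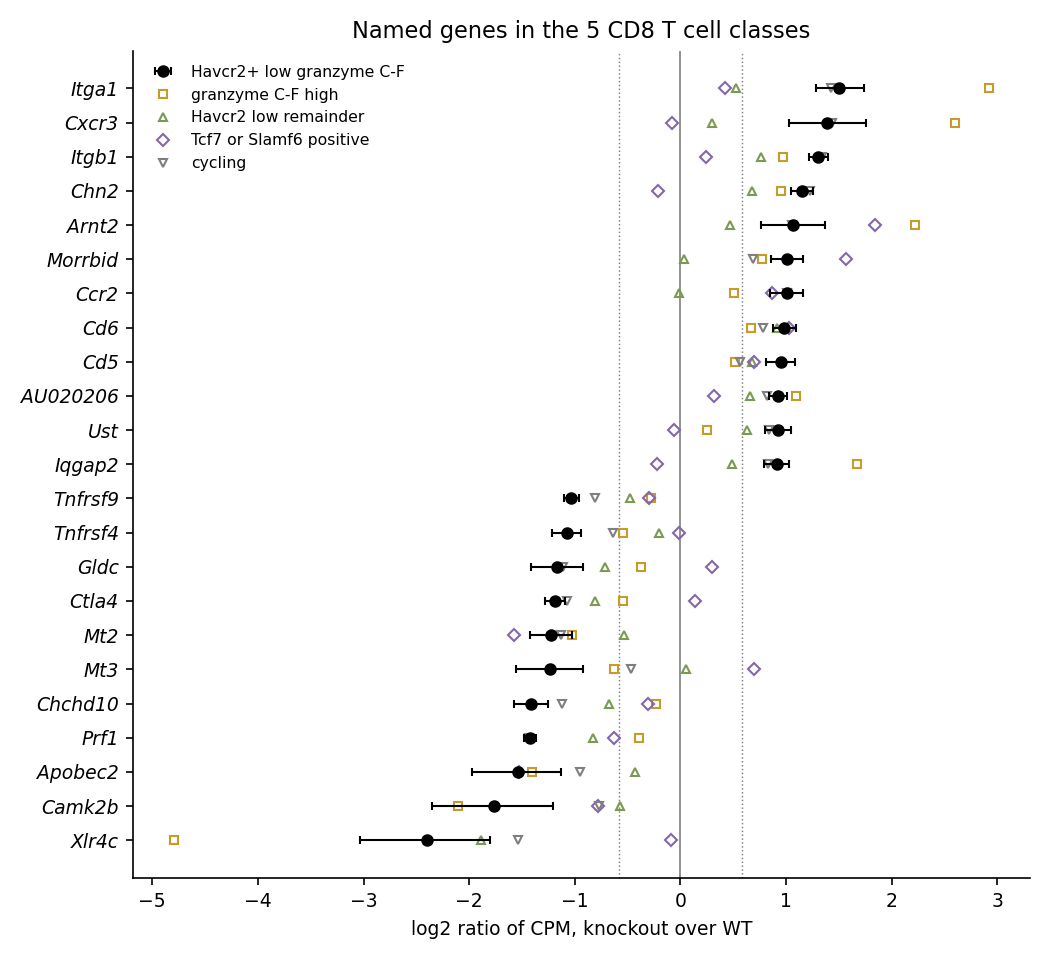
Log2 ratio of CPM, knockout over WT (horizontal axis), for 23 of the 24 leading genes. Black points with exact 95% intervals for counting error only are the Havcr2+ low granzyme C-F cells, open symbols are the other 4 CD8 T cell classes without intervals, and dotted lines mark 1.5-fold. Itga1 at a ratio of 2.84 and Prf1 at 0.372 lie on opposite sides. For Prf1 the cycling cells stand at -1.43 and the Tcf7 or Slamf6 positive cells at -0.63.

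Hypoxia and glycolysis genes were lower in the knockout library as a group. Cells short of oxygen stabilise the factor HIF, which binds a short core motif and switches on glucose uptake, glycolysis and lactate export, and activated T cells use the same genes. Of 31 members, all compared, 16 were at least 1.5-fold lower (51.6%, against 4.21% of all compared genes) and none was higher. The median log2 ratio was -0.59, against 0.08 for all compared genes, and it lay between -0.58 and -0.70 under the alternatives run. Bnip3, a mitophagy receptor induced by HIF, was at 37.0 CPM in knockout tumours, against 71.0 CPM in WT tumours, a ratio of 0.521 (0.455 to 0.596). Ankrd37, a HIF target, was at 23.2 CPM in knockout tumours and 44.0 CPM in WT tumours. Slc16a3, the lactate exporter MCT4, was at 41.4 CPM in knockout tumours, against 77.9 CPM in WT tumours. Along the glycolytic chain, the lower genes ran from its first step to lactate. Hk2, a hexokinase, was at 29.6 CPM in knockout tumours and 54.7 CPM in WT tumours. Tpi1, triosephosphate isomerase, was at 336 CPM in knockout tumours, against 626 CPM in WT tumours. Pgk1, phosphoglycerate kinase, was at 417 CPM in knockout tumours and 726 CPM in WT tumours, a ratio of 0.574 (0.551 to 0.598). Gapdh was at 1740 CPM in knockout tumours, against 2814 CPM in WT tumours, and Ldha, a lactate dehydrogenase chain, at 599 CPM in knockout tumours and 949 CPM in WT tumours. All of these glycolysis genes were lower in the knockout library. Hilpda, a lipid droplet protein induced by hypoxia, was at 51.4 CPM in knockout tumours, against 91.9 CPM in WT tumours. Vegfa, the vascular growth factor, and Kdm3a, a histone demethylase, both HIF targets, were above 1, with ratios of 1.40 and 1.21. The median of the list was -0.43 in granzyme C-F high cells, -0.47 in cycling cells, -0.14 in the Havcr2 low remainder and -0.13 in Tcf7 or Slamf6 positive cells. Melanoma markers were also lower in the knockout library, with sums given below, and with free RNA subtracted the median of the hypoxia list was -0.63. That subtraction took 4.43% of UMIs in WT tumours, where melanoma genes alone gave an estimate of 10.5%, so melanoma RNA may be subtracted too little there. The part of melanoma RNA in this list was not tested. Oxidative phosphorylation genes, the mitochondrial route to ATP, passed 1.5-fold for none of 34 members, with a median of -0.14.

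**Figure D4:**
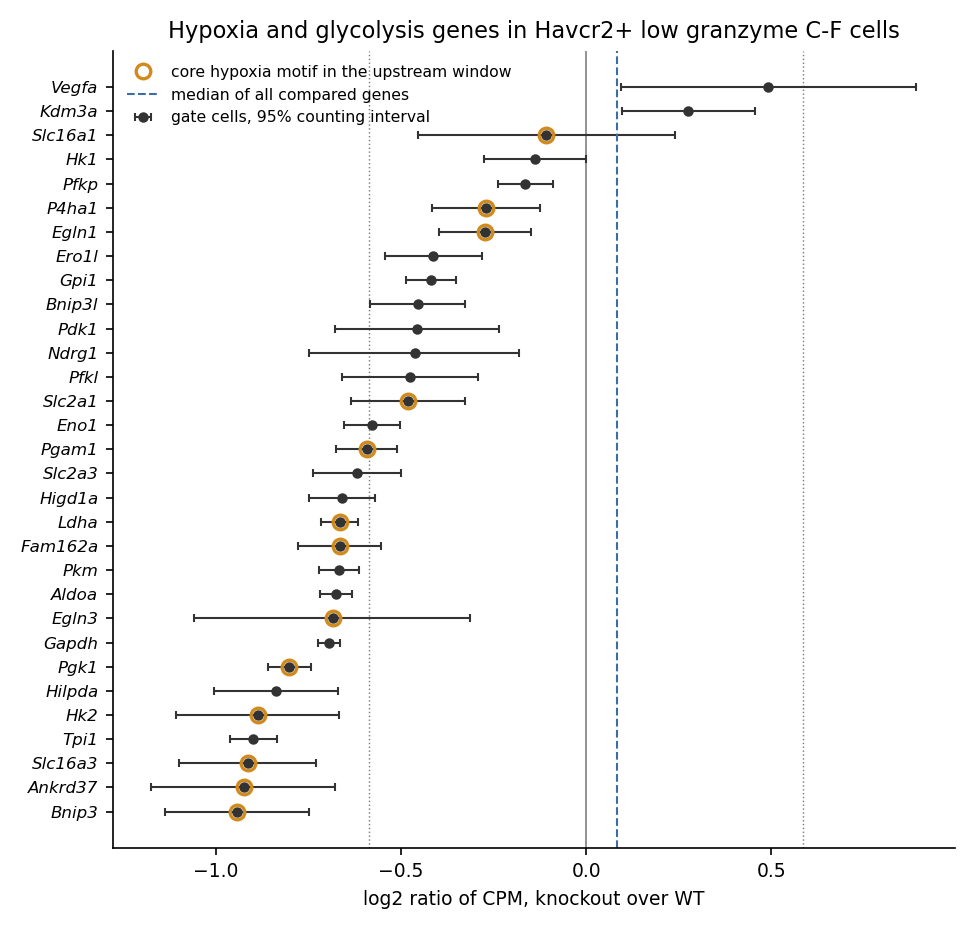
Log2 ratio of CPM, knockout over WT (horizontal axis), of the 31 hypoxia and glycolysis genes in the Havcr2+ low granzyme C-F cells, with exact 95% intervals for counting error only. The dashed line is the median of all compared genes at 0.08, dotted lines mark 1.5-fold, and rings mark genes whose upstream promoter window holds the core hypoxia motif. Bnip3 is lowest at -0.94, and Vegfa and Kdm3a alone lie right of 0.

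The promoter windows of 4 of the lower genes that hold the motif are shown because the group moved together. The motif searched was ACGTG on either strand in the 250 bases before the first RefSeq start listed for each gene. Further starts, listed for some genes, were not used. Of the 31 genes, 27 were in the RefSeq table of GRCm38.p6. Slc2a3, Bnip3l, Ndrg1 and Ero1l were not matched. The motif lay in 9 of the 15 matched genes that were lower (60%) and in 4 of the 12 others (33.3%). It lay in 23.0% of the first promoters of the compared genes and in 16.6% of those of all genes in the table. The list was made of hypoxia and glycolysis genes, so a share above that of all genes is not a result about the knockout. The difference between lower and other members was not tested. A match is a description of the letters and not a binding site. The sequences are written 5′ to 3′ on the gene's strand, with the motif in capitals on whichever strand it lies.
Bnip3, chr7:138909507-138909756, minus strand: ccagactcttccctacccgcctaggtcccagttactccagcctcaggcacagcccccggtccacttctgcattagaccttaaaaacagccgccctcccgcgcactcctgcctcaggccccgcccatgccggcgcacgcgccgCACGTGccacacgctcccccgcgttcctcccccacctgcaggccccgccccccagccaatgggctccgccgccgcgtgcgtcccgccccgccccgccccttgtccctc
Ankrd37, chr8:45999851-46000100, minus strand: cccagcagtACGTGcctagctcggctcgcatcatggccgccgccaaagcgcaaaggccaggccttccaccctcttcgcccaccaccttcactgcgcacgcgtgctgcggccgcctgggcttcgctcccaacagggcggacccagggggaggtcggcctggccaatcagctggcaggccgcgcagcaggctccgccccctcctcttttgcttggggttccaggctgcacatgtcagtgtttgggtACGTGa
Slc16a3, chr11:120948817-120949066, plus strand: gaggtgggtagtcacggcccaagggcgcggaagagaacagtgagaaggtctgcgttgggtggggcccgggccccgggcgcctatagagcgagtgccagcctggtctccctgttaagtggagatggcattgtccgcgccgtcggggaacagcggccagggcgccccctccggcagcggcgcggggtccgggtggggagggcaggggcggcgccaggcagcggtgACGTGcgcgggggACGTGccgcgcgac
Pgk1, chrX:106186850-106187099, plus strand: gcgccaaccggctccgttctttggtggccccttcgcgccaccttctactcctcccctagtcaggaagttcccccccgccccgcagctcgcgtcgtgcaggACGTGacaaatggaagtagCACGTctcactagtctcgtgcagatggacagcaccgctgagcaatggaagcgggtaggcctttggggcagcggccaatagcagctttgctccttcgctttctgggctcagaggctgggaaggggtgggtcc
Each window holds 2 matches. Those of Bnip3 overlap, 1 on each strand, in the palindrome CACGTG, which is also the E-box letters read by other factors. In GENCODE M21 the last 13 bases of the Bnip3 window lie in the first exon of a transcript with a retained intron, the last 17 of the Ankrd37 window in the first exon of a protein-coding transcript, and the last 14 of the Slc16a3 window in an exon of one. The rest of the Slc16a3 window is intronic in a longer transcript, the rest of the Ankrd37 window is intronic in a longer transcript and in Lrp2bp on the opposite strand, and the Pgk1 window overlaps no annotated transcript.

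The cytotoxic list was lower for 6 of 19 members (31.6%, against 4.21% of all compared genes) and higher for 1 (5.26%, against 6.71%). Its median was -0.18. Gzmb was at 803 CPM in knockout tumours and 1501 CPM in WT tumours, a ratio of 0.535 (0.520 to 0.550). Serpinb6a, Serpinb6b and Serpinb9, inhibitors that shield a killer cell from its own proteases, were at 92.7, 125 and 116 CPM in the knockout library and at 179, 233 and 188 CPM in the WT library. Stx11, a syntaxin needed to release granules, was at 45.5 CPM in knockout tumours, against 68.3 CPM in WT tumours. Gzma, granzyme A, was the exception, at 63.2 CPM in knockout tumours and 25.8 CPM in WT tumours, and it was seen in 74 cells of the knockout library and 53 of the WT library. Nkg7, a granule membrane protein, was at 2010 CPM in knockout tumours, against 2317 CPM in WT tumours.

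Of 12 costimulatory receptors, with a median of -0.03, 3 were lower (25%, against 4.21% of all compared genes) and none higher. They were Tnfrsf4, Tnfrsf9 and Tnfrsf18, the receptor GITR. Tnfrsf18 was at 106 CPM in knockout tumours and 159 CPM in WT tumours. The ratio of Tnfrsf18, 0.662, was 0.691 without doublets and 0.673 without cells holding 3 or more Lyz2 UMIs, under 1.5-fold, which left 2 lower. Inhibitory receptors did not move as 1 group. Of 14 compared, Cd5 and Cd244a were higher (14.3%, against 6.71% of all compared genes) and Ctla4 was lower (7.14%, against 4.21%). Cd244a was at 104 CPM in knockout tumours, against 68.0 CPM in WT tumours. Pdcd1 had a ratio of 1.05 (1.01 to 1.10), Tigit 1.15 (0.999 to 1.32), Entpd1 1.11 and Lag3 0.800 (0.750 to 0.854). The median of the list was 0.13.

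Among exhaustion and effector transcription factors, 3 of 24 were higher (12.5%, against 6.71% of all compared genes). Another 1 was lower (4.17%, near the 4.21% of all compared genes). Tox, at 1828 CPM in knockout tumours and 1417 CPM in WT tumours, had a ratio of 1.29 (1.26 to 1.32), under 1.5-fold. Bcl6, a repressor that favours memory and follicular fates, was at 20.9 CPM in knockout tumours, against 9.12 CPM in WT tumours, but at 5.45 CPM in knockout tumours and 6.74 CPM in WT tumours with doublets left out, where its direction turned. Irf4, a factor induced by antigen, was at 35.4 CPM in knockout tumours and 21.9 CPM in WT tumours, and Tox2, a relative of Tox, at 8.94 CPM in knockout tumours, against 5.01 CPM in WT tumours. Nr4a2, an orphan nuclear receptor induced by antigen, was at 141 CPM in knockout tumours and 246 CPM in WT tumours. The median of the list was 0.28, and it was -0.05 with doublets left out and -0.02 over cells with a beta V segment other than the leading one. Of 14 naive and progenitor genes, 4 were higher (28.6%, against 6.71% of all) and 1 lower (7.14%, against 4.21%), with a median of 0.21. Bcl2 was at 268 CPM in knockout tumours, against 160 CPM in WT tumours. Il6ra, an interleukin 6 receptor chain, was at 10.9 CPM in knockout tumours and 4.56 CPM in WT tumours. Without doublets Il6ra was at 3.72 CPM in knockout tumours, against 2.41 CPM in WT tumours, a ratio of 1.54. Cxcr3 is given above. Ccr7, which guides cells to lymph nodes, was lower, at 5.30 CPM in knockout tumours and 10.6 CPM in WT tumours.

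Of 24 T cell receptor signalling genes, 2 were higher (8.33%, near the 6.71% of all compared genes) and none lower, with a median of 0.30, against 0.08 for all compared genes. Prkcq, the kinase PKC-theta, was at 322 CPM in knockout tumours, against 213 CPM in WT tumours, and Egr2, an antigen-induced factor, at 9.60 CPM in knockout tumours and 3.87 CPM in WT tumours. Sla and Plcg1 came close, with ratios of 1.46 and 1.45. Tissue residency and adhesion genes were higher for 3 of 20 (15%, against 6.71% of all compared genes), Itga1, Itgb1 and Cdh1. Cd9 and Itgb7 were lower (10%, against 4.21%), and the median was -0.02. Cdh1 had a ratio of 1.90, which was 1.499 without doublets and 1.485 without cells holding 3 or more Lyz2 UMIs. Itgb7, the beta 7 integrin chain, was at 37.97 CPM in knockout tumours, against 57.3 CPM in WT tumours. Of 20 cytokine and chemokine receptors, Ccr2 and Tgfbr1, a receptor for the growth factor TGF-beta, were higher (10%, against 6.71%). Il2ra and Cx3cr1 were lower (10%, against 4.21%), and the median was 0.05. Cx3cr1 lay at the 1.5-fold limit, and its call ended without doublets. Il2ra, the high-affinity chain of the interleukin 2 receptor, was at 46.6 CPM in knockout tumours and 84.2 CPM in WT tumours. No killer lectin-like receptor of 6 passed 1.5-fold, and their median was -0.15.

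Cytokines and chemokines differed in both directions, with 5 of 15 higher (33.3%, against 6.71% of all compared genes) and 3 lower (20%, against 4.21%). Their median was 0.12. Xcl1, which draws cross-presenting dendritic cells, was at 399 CPM in knockout tumours, against 175 CPM in WT tumours. Tnf was at 27.7 CPM in knockout tumours and 17.7 CPM in WT tumours. Il2, the T cell growth factor, was at 10.0 CPM in knockout tumours, against 1.25 CPM in WT tumours, but its 91 UMIs in the knockout library came from 13 cells, and the 11 UMIs in the WT library from 11. Ccl1 and Tnfsf14 were also higher, but Ccl1 was lower in cells with the leading V segment, described below. Ccl3, a chemokine for macrophages and T cells, was at 586 CPM in knockout tumours and 1030 CPM in WT tumours, and Mif, a cytokine, at 699 CPM in knockout tumours, against 1054 CPM in WT tumours. The ratio of Mif, 0.663, lay at the 1.5-fold limit and was 0.668 without doublets and 0.669 without cells holding 3 or more Lyz2 UMIs, which ended its call. Il10, an immunosuppressive cytokine, was at 2.21 CPM in knockout tumours and 6.04 CPM in WT tumours. Ifng, interferon gamma, stayed within 1.5-fold at 282 CPM in knockout tumours, against 303 CPM in WT tumours, as did Ccl4 at 1397 CPM in knockout tumours and 1423 CPM in WT tumours.

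Ranked by the smaller value of the 2 libraries, the 3 genes that varied most from cell to cell were chemokines. In cells thinned to 5000 UMIs, the variance over the mean was 131 for Xcl1 in knockout tumours, against 143 in WT tumours. It was 186 for Ccl4 in knockout tumours and 94.7 in WT tumours, and 39.9 for Ccl1 in knockout tumours, against 66.5 in WT tumours. The median over 3639 genes was 1.20 in knockout tumours and 1.18 in WT tumours. Xcl1 was seen in 90 of 585 cells in knockout tumours, against 52 of 475 in WT tumours. Ccl1 was seen in 28 cells in knockout tumours and 15 in WT tumours. Ifng varied more in the knockout library, at 36.1, than in the WT library, at 5.63. Cd74 and Lyz2, macrophage genes, were also among the most variable, at 15.3 and 21.2 in knockout tumours, against 22.7 and 13.6 in WT tumours.

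Type I interferon genes were higher for 4 of 28 (14.3%, against 6.71% of all compared genes) and lower for none. With doublets left out, however, 1 was higher and 2 were lower. Oasl2, an antiviral protein, was at 30.0 CPM in knockout tumours and 11.4 CPM in WT tumours, and without doublets at 5.45 CPM in knockout tumours, against 7.82 CPM in WT tumours. Slfn5 turned too, with a ratio of 1.72 that was 0.945 without doublets, and Oas2 had a ratio of 1.99 that was 1.22 without them. Slfn8 was the member that stayed higher. Isg15, a ubiquitin-like interferon product, was at 140 CPM in knockout tumours, against 186 CPM in WT tumours. The median of 0.18 was -0.13 with doublets left out and -0.08 in thinned cells. Immediate early and heat shock genes were higher for 4 of 23 (17.4%, against 6.71%) and lower for 5 (21.7%, against 4.21%). Their median was -0.13, but with doublets left out none was higher and 7 were lower. Zfp36, an RNA-decay factor, was at 48.2 CPM in knockout tumours and 19.4 CPM in WT tumours, and Atf3, a stress-induced factor, at 28.5 CPM in knockout tumours, against 13.7 CPM in WT tumours. Without doublets their ratios were 1.06 for Zfp36 and 1.09 for Atf3, and those of Fos and Ier3, the other higher members, were 0.438 and 0.414. Neutrophil and macrophage markers, with sums given below, were also higher in the knockout library. Jun was at 32.5 CPM in knockout tumours and 71.2 CPM in WT tumours, and Hspa1a, an inducible heat shock protein, at 122 CPM in knockout tumours, against 218 CPM in WT tumours.

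Lipid handling and ferroptosis genes, which the study's title bears on in the tumour, showed few differences in these T cells. Of the lipid genes 3.33% were higher and 3.33% lower, and of the ferroptosis and iron genes 5.56% each way. The shares of all compared genes were 6.71% higher and 4.21% lower. Of 30 lipid genes, Lipe, a lipase, was higher with a ratio of 1.51 (0.974 to 2.36) that was 1.16 without doublets, and Plin3, a lipid droplet coat protein, was lower at 0.628 (0.707 without cells holding 3 or more Lyz2 UMIs), with a median of -0.07. Dgat1 itself was at 73.0 CPM in knockout tumours and 87.4 CPM in WT tumours, and since the T cells are the host's, this does not check the knockout. Of 18 ferroptosis and iron genes, Alox5ap was higher with a ratio of 1.55, which turned to 0.605 without doublets, and Sat1, a polyamine enzyme, was lower at 118 CPM in knockout tumours, against 180 CPM in WT tumours, and the median was -0.13. Gpx4, the lipid peroxide reductase that holds ferroptosis in check, was at 145 CPM in knockout tumours and 193 CPM in WT tumours. Of 32 cell cycle genes, Cdc20 and Ccnb1 were lower (6.25%, against 4.21% of all compared genes) and none higher, with a median of -0.06.

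Receptor V segments separated the libraries. Each T cell clone carries 1 rearranged beta chain, so a shared segment is a coarse mark of clonal relation. A beta segment had a UMI in 177 of 585 cells (30.3%) in knockout tumours, against 266 of 475 (56.0%) in WT tumours, and in 0.197% of macrophages in knockout tumours and 0.318% in WT tumours. Trbv20 (chr6:41188273-41188977 in mm10, plus strand) was in 108 of the 177 cells from knockout tumours, 61.0% (53.4 to 68.2), and in 4 of the 266 from WT tumours, 1.504%. Trbv2 (chr6:41047340-41047995, plus strand) was in 5 of 177 cells in the knockout library, 2.82%, and in 173 of 266 in the WT library, 65.0% (59.0 to 70.8). Each library was thus dominated by a segment that was rare in the other. Next came Trbv12-2 at 11.9% and Trbv16 at 7.91% in the knockout library, and Trbv13-1 at 14.3% and Trbv3 at 9.02% in the WT library. Tcf7 or Slamf6 positive cells held Trbv20 at 40.4% in knockout tumours and Trbv2 at 16.2% in WT tumours. In CD4 T cells Trbv20 was in 7 of 62 cells in knockout tumours and 6 of 21 in WT tumours.

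**Figure D5:**
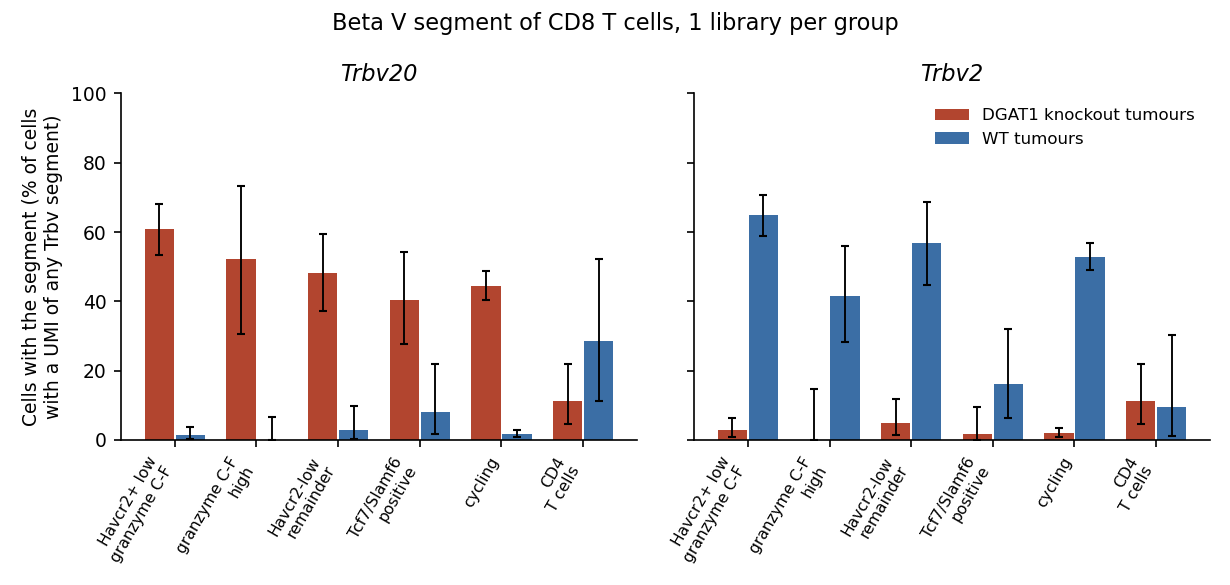
Share (percent) of cells with a UMI of any Trbv segment that carried Trbv20 (left panel) or Trbv2 (right panel), in the 5 CD8 T cell classes and in CD4 T cells, knockout tumours left of WT tumours, 1 library each, with exact 95% binomial intervals for counting error only. In the Havcr2+ low granzyme C-F cells Trbv20 stands at 61.0% in knockout tumours and 1.504% in WT tumours, and Trbv2 at 2.82% in knockout tumours and 65.0% in WT tumours.

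Alpha segments differed too. Trav5-4 was in 47 of 98 cells with an alpha segment in the knockout library (48.0%) and in 0 of 96 in the WT library, which allows up to 3.12%. Trav10 was in 0 of 98 cells in the knockout library, which allows up to 3.06%, and in 25 of 96 (26.04%) in the WT library, and Trav6n-6 in 0 of 98 in knockout tumours, against 16 of 96 (16.7%) in WT tumours. Of the 15 cells from knockout tumours with Trav5-4 and a beta segment, 11 carried Trbv12-2 and 4 Trbv20. Trbv1, Trbv4 and Trbv13-1 were in 1 cell each, so some of the 15 held more than 1 beta segment. In the WT library, 17 of the 19 cells with Trav10 and a beta segment carried Trbv2, as did 12 of the 13 with Trav6n-6. The labels tie no cell to a mouse, so how many mice stand behind a segment is not known here. Segments may also be captured unequally.

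The differences between the tumours were also computed within cells grouped by segment. Cells were split into those with the library's leading segment (108 in knockout tumours and 173 in WT tumours), those with another segment only (69 in knockout tumours, against 93 in WT tumours) and those with none seen (408 in knockout tumours and 209 in WT tumours). Prf1 had ratios of 0.458 in cells with the leading segment, 0.286 in cells with another and 0.378 in cells with none seen. Ctla4 had 0.468, 0.413 and 0.444, and Tnfrsf9 0.574, 0.473 and 0.456. Itgb1 had 1.91, 2.89 and 2.39, and Pgk1 0.657, 0.540 and 0.561. These 5 genes kept their direction in all 3 splits, as did Xcl1 with ratios of 2.59, 4.65 and 1.33 and Gzmb with 0.678, 0.486 and 0.533. Ifng, Ccl1, Ccl3 and Ccl4 did not. Ccl4 had ratios of 0.738 in cells with the leading segment, 1.05 (0.989 to 1.11) in cells with another and 0.884 in cells with none seen. Ifng had a ratio of 0.534 (0.472 to 0.603) in cells with the leading segment and 1.81 (1.601 to 2.04) in cells with another. Ccl3 was at 370 CPM in knockout tumours, against 1056 CPM in WT tumours in cells with the leading segment, a ratio of 0.351, and had a ratio of 1.06 in cells with another. Ccl1 had ratios of 0.474 (0.327 to 0.673) in cells with the leading segment, 16.2 in cells with another and 0.986 in cells with none seen. Gzma was at 83.2 CPM in knockout tumours and 7.26 CPM in WT tumours in cells with the leading segment, a ratio of 11.5 (7.496 to 18.2), and had ratios of 2.28 in cells with another and 1.20 in cells with no segment seen. Arnt2 had ratios of 2.90 and 1.09 (0.575 to 2.00) in cells with the leading and with another segment, and Morrbid 1.16 and 2.56. The intervals cover counting error only, and Xcl1, Ifng, Ccl1, Ccl3, Ccl4 and Gzma varied more than that between cells. Over thinned gate cells, variance over mean was 36.1 for Ifng, 39.9 for Ccl1, 35.5 for Ccl3 and 28.7 for Gzma in knockout tumours. In that order it was 5.63, 66.5, 25.5 and 6.60 in WT tumours. For Xcl1 it was 131 in knockout tumours and 143 in WT tumours, and for Ccl4 186 in knockout tumours, against 94.7 in WT tumours. Ccl1 was seen in 4.79% of gate cells in knockout tumours and 3.16% in WT tumours. Cells with these genes were not counted in each split, so a few cells may carry these ratios. Whether the segment bears on the ratios above was not tested.

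Genes of other cells were present at low levels and moved between the libraries. The 12 macrophage markers, C1q left out as part of the rule, summed to 1127 CPM in knockout tumours, against 701 CPM in WT tumours, with Lyz2 at 213 CPM in knockout tumours and 92.99 CPM in WT tumours. Neutrophil markers summed to 133 CPM in knockout tumours, against 10.0 CPM in WT tumours. S100a8 was at 48.0 CPM in the knockout library, with its 435 UMIs in 19 cells, and at 2.28 CPM in the WT library. Melanoma markers ran the other way, at 74.0 CPM in knockout tumours and 293 CPM in WT tumours, with Pmel at 6.51 CPM in knockout tumours, against 62.7 CPM in WT tumours. NK markers summed to 192 CPM in knockout tumours and 141 CPM in WT tumours, and Ncr1, which defines NK cells, to 1.44 CPM in knockout tumours, against 1.03 CPM in WT tumours. In the knockout library, B cell markers summed to 38.5 CPM, gamma-delta T cell markers to 65.2 CPM, dendritic cell markers to 36.6 CPM, erythroid markers to 4.19 CPM and fibroblast markers to 1.55 CPM. In the WT library these sums were 24.3, 41.7, 56.6, 7.41 and 7.86 CPM in the same order. Regulatory T cell markers, which share Ctla4, Tnfrsf4, Il2ra and Ikzf2 with the lists above, summed to 836 CPM in knockout tumours and 1244 CPM in WT tumours, with Foxp3 at 0 by the rule. Markers with no UMI in either library were Trdv4 of gamma-delta T cells, Lrrc32 of regulatory T cells, Slc4a1 of erythroid cells and Pdgfra of fibroblasts. Siglech, Gpr83, Dcn and Lum had none in the knockout library, and Retnlg, Tcrg-C4 and Sox13 none in the WT library. Free RNA was estimated to give 4.73% of the UMIs of these cells in knockout tumours, against 4.43% in WT tumours. All 24 leading genes kept their direction and stayed past 1.5-fold with free RNA subtracted, with doublets left out and without cells holding 3 or more Lyz2 UMIs. Of the 76 calls of list members between the tumours, 15 fell under 1.5-fold or turned under at least 1 of these 3 alternatives. The part of other cells' RNA in the lists was not tested beyond them.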

How the data were processed

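Living CD45+ cells of DGAT1-knockout and WT B16-F10 tumours were profiled as 1 droplet library per group. The authors deposited raw UMI counts as whole numbers, with no normalization, for 32285 genes in every barcode, empty ones included. The files were written by Cell Ranger 7.2.0, per the file headers, and the build was mm10, per the submitters' processing notes. The gene models counted and any filters are, in the sources used here, not given. GENCODE M21 gave positions for 32158 of the 32285 gene IDs, and RefSeq (GRCm38.p6) gave the promoters.

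Barcodes were kept with at least 1000 UMIs, 300 genes and at most 10% mitochondrial UMIs. The members, the 17 gene lists and the 10 marker lists were chosen with earlier results of these data known. CD8 T cells were taken as cycling, granzyme C-F high, Tcf7 or Slamf6 positive, Havcr2+ low granzyme C-F or the Havcr2 low remainder, in this order. UMIs were summed per library and class and divided by the summed total to give CPM. A gene was compared with at least 50 UMIs in 1 library, and named past 1.5-fold. With 1 library per group and cells that are not replicates, no test was made. Levels have exact Poisson, shares exact binomial (Clopper-Pearson) and ratios exact conditional 95% intervals. Intervals, and the limit of 3 counts that a share of 0 allows, cover counting error only.

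The genes named between the tumours were the 12 each way with the interval bound farthest from no difference. They needed UMIs in at least 20 cells of the higher library, at most 25% of them in 10 cells and under 25% from free RNA. Rule genes, mitochondrial, ribosomal, haemoglobin, immunoglobulin and receptor segment genes, Gm and Rik gene models, Xist and Y-linked genes were left out. The same held in both libraries for the gate against the other CD8 T cells. List members named were the 4 with the largest and the 4 with the smallest ratios or those that define the list. Genes of thresholds, classes, segments and cell-to-cell variation were chosen after their values were seen. Of the genes this rule and the lists gave, 3 are not reported here.

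Scrublet in scanpy 1.11.5 marked 335 (2.98%) of kept barcodes from knockout tumours and 177 (1.97%) from WT tumours, and they were left out only as an alternative. Free RNA was taken from barcodes with at most 100 UMIs. Its share was the smaller of estimates from macrophage genes (11.5% for knockout tumours and 4.43% for WT tumours) and melanoma genes (4.73% for knockout tumours and 10.5% for WT tumours), a choice made after seeing them. The scripts used Python 3.11.15, numpy 2.4.6, scipy 1.17.1 and pandas 2.3.3, and were tested on simulated data.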

Additional observations from a re-analysis of the deposited data

How the results depend on the processing

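No paired analysis was possible because each group is 1 library. Of 385 recomputed shares, gene counts and list medians under 17 alternatives, 353 moved by less than the limits set and 32 moved more. A reversal could be counted only for the hypoxia and glycolysis median, the only median past 1.5-fold, and it did not reverse. Some medians under 1.5-fold, such as those of exhaustion factors and interferon genes, changed sign, as given below. Of 408 recomputed ratios of the leading genes, 40 moved more. Asking for at least 200 or at least 20 UMIs per gene, or for 2-fold, leaves a gene's ratio unchanged, so these settings could not move it. Under the alternatives that could change a ratio, the 24 leading genes kept their direction. They also stayed past 1.5-fold, except 1 (Arnt2) when only cells with another beta segment were used. These genes had been picked for interval bounds far from no difference, which favours such staying. Among the 76 calls of list members, Bcl6, Oasl2, Slfn5, Alox5ap, Fos and Ier3 turned direction with doublets left out. Leaving out cells with the leading beta segment, using only gate cells with another one, and leaving out cells with 3 or more Lyz2 UMIs were chosen after seeing the data. The share of CD8 T cells was 18.9% in knockout tumours and 21.1% in WT tumours with at least 3 Havcr2 UMIs, and 19.98% in knockout tumours and 23.0% in WT tumours thinned to 5000 UMIs. With no UMI of Tcf7 or Slamf6 it was 21.3% in the knockout library. Genes higher in the knockout library were 425 without doublets, 272 with at least 200 UMIs per gene and 198 at 2-fold. Genes lower were 124 with at least 200 UMIs, 796 with at least 20, 164 at 2-fold, 190 thinned and 265 in cells with another beta segment, where 5403 genes were compared. Genes higher in the gate than in other CD8 T cells were 240 with each cell weighted alike, 385 with at least 200 UMIs, 88 at 2-fold and 37 thinned, and genes lower were 554 at 2-fold and 390 thinned. Among list medians of the log2 ratio of knockout over WT, exhaustion factors were -0.052 without doublets and -0.020 with another beta segment. Cytotoxic effectors were -0.26 centred on the median gene and -0.32 thinned, and cytokines 0.0018 thinned. Residency genes were -0.10 centred, -0.11 thinned and -0.17 with another segment. Oxidative phosphorylation was -0.22 centred. Ferroptosis was 0.18 and cell cycle 0.26 with another segment. Interferon genes were -0.13 without doublets and -0.083 thinned. The cause was not tested, beyond the fewer genes or cells that a stricter minimum, thinning or a split leaves. Depth limits what is said of low genes: under about 50 UMIs in both libraries a gene was not compared.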
